A study of Mus musculus with 2 samples.

Results

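The Ikaros and Bcl11 genes encode transcription factors with C2H2 zinc fingers that act in blood cell differentiation. The family members were chosen by gene symbol. They were Ikzf1 (Ikaros), Ikzf2 (Helios), Ikzf3 (Aiolos), Ikzf4 (Eos), Ikzf5 (Pegasus), Bcl11a and Bcl11b, which are 7 of the 34745 genes listed. Their mRNA was measured by RNA-seq in LSKs, the Lin-Sca1+c-Kit+ fraction of mouse bone marrow (BM) that holds stem cells and early progenitors. All mice were C57BL/6 and carried both transgenes of the Scl/tTA-BCR/ABL (BA) system, in which the Scl promoter drives the tetracycline transactivator in stem and progenitor cells and doxycycline keeps BA off. The week-0 library came from mice still on doxycycline and served as the control, and the week-3 library came from mice 3 weeks after doxycycline withdrawal. LSKs of 3 mice were mixed for each library. With 1 library per time point there was no replicate check, and each comparison is between 2 libraries. Intervals are exact Clopper-Pearson or Poisson intervals at 95% and cover the counting error of amplified reads only.

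Factors of the Ikaros family bind DNA through N-terminal zinc fingers and pair with each other through C-terminal zinc fingers. They recruit the NuRD chromatin remodelling complex and other corepressors. Ikzf1 is required for lymphoid differentiation and acts already in multipotent progenitors, where it supports the first lymphoid genes. Bcl11a and Bcl11b bind NuRD and SWI/SNF (BAF) complexes. Bcl11a acts in B cell and dendritic cell development and silences embryonic globin genes in red cells, whereas Bcl11b is needed for commitment to the T cell lineage.

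Reads counted on genes numbered 6356164 in the control library and 3886695 after withdrawal. An observed count of 0 in a library leaves room for an expected count of up to 3 reads. A gene with any read in a library was taken as above 0 there. FPKM are reads scaled per kb of a gene length and by the total of the library. All 12 LSK marker genes were above 0 in both libraries, and their summed FPKM was 187 at week-0 and 107 at week-3. Among them, Procr and Mecom were at or below 0.5 times at week-3, and Slamf1 was above 2 times. Marker lists of other cell types also differed between the libraries. The summed FPKM of 9 neutrophil lineage genes went from 2031 to 10974, and all 9 were at least 2 times higher. For 8 mast cell and basophil genes the sums were 130 and 1918, with 7 at least 2 times higher. In a bulk library, fewer cells of a type and less RNA per cell cannot be told apart. The part of these cells in the values of the Ikaros and Bcl11 genes was not tested.

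All 7 genes were above 0 in both libraries, and 3 of them were past 2 times, which means a ratio of FPKM at week-3 to FPKM at week-0 of at least 2 or at most 0.5. Among the 15377 genes above 0 in both libraries, 30.5% were past the same limits, so the share among the members was close to the background at this number of genes. Ikzf2 was the single member at least 2 times higher, beside 14.2% of all genes, and Ikzf5 and Ikzf3 were at most 0.5 times, beside 16.2%. Ikzf2 and Ikzf5 were past 2 times with a counting interval that also left out a ratio of 1, which made 2 of 7 beside 21.1% of all genes. Of the 4 members with at least 100 reads over both libraries 2 were past 2 times, beside 18.7% of the 8817 genes with that many reads. An edgeR exact test with an assumed biological coefficient of variation of 0.1, which compares the libraries and not the conditions, also kept Ikzf2 and Ikzf5, beside 18.2% of all genes. At an assumed 0.4 none of the 7 was kept, beside 0.754% of all genes, and with a pseudocount of 1 FPKM added to both values none was past 2 times, beside 10.7%. The median log2 ratio was -0.14 over the members and 0.09 over all genes tested.

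The levels fell into an upper group of Ikzf1, Bcl11a, Ikzf5 and Ikzf2 and a lower group of Ikzf3, Ikzf4 and Bcl11b, which had under 20 reads each over both libraries. At week-0 the order by FPKM was Ikzf1, Bcl11a, Ikzf5 and Ikzf2, with overlapping counting intervals for Bcl11a and Ikzf5. At week-3 the order was Ikzf1, Bcl11a, Ikzf2 and Ikzf5. There the FPKM of Ikzf2 was 0.940 times that of Bcl11a, with an interval of 0.768 to 1.15, so these neighbours did not differ beyond counting error. The 3 genes of the lower group overlapped each other in both libraries. The summed FPKM of all 7 was 15.3 at week-0 and 14.7 at week-3, so that the family total differed little while its makeup differed. Ikzf2 supplied 8.44% of the sum at week-0 and 19.2% at week-3. Ikzf5 supplied 21.8% and 10.5%, in the opposite direction. The order and the shares rest on the gene lengths behind the FPKM. These exceeded the merged exons unevenly, with 10847 against 5777 bases for Ikzf1 and 7025 against 5721 for Ikzf5.

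**Figure D1:**
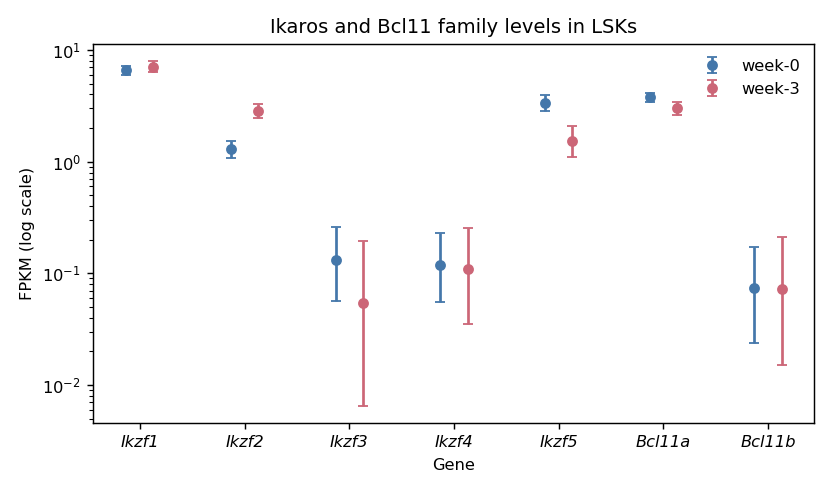
FPKM on a log axis of the 7 genes in the week-0 (blue) and week-3 (red) library, with exact Poisson intervals of the reads as bars. Ikzf1 stood highest in both libraries at 6.58 and 7.09, while Ikzf3, Ikzf4 and Bcl11b lay below 0.3 with wide intervals.

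Ikzf1, the founding member of the family, was the most abundant member in both libraries. The gene (ENSMUSG00000018654) lies on chromosome 11 from 11685003 to 11772926 on the plus strand of GRCm38. At week-0 it had 454 reads, an FPKM of 6.58 (5.99 to 7.22), and at week-3 it had 299 reads, an FPKM of 7.09 (6.31 to 7.94). The intervals overlapped, and the log2 ratio was 0.11 (-0.11 to 0.32). The sign depended on the scaling, with a log2 ratio of -0.01 by TMM, which lowered the ratio of every gene by 0.11. Of the genes tested, 49.3% were at least as high, which places Ikzf1 close to the middle of all ratios. A pair of antisense or opposite-strand genes overlap its span, Gm12000 with 5 and 0 reads and Gm11999 with 0 in both libraries, and neither shares exon bases with it.

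Ikzf2, which is expressed in stem and progenitor cells and in regulatory T cells, was the member with the higher level at week-3. It lies on chromosome 1 from 69531214 to 69687245 on the minus strand (ENSMUSG00000025997). The control library held 142 of its reads, for an FPKM of 1.29 (1.09 to 1.52), and the week-3 library 190, for an FPKM of 2.83 (2.44 to 3.26). The intervals did not overlap, and the level was 2.19 times higher at week-3 (1.75 to 2.74), a log2 ratio of 1.13. Under TMM scaling the log2 ratio was 1.02, just past the limit. Of all genes tested 11.8% were as high or higher in ratio, and of the genes with at least 100 reads 5.31%.

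Reads were also listed for genes annotated inside Ikzf2. Gm28112, a sense-intronic transcript with a single exon of 1875 bases, lies from 25.2 to 27.1 kb after the start of Ikzf2 on the same strand and shares no exon base with it. It had 160 reads in the control library and 302 after withdrawal, more than Ikzf2 itself in both libraries. Its FPKM was 13.4 and 41.4, and its log2 ratio of 1.63 (1.34 to 1.91) had the same direction as that of Ikzf2. The ratio of Gm28112 to Ikzf2 reads was 1.41 times higher at week-3 (1.04 to 1.90). Gm29112, a second sense-intronic transcript 88.7 to 92.2 kb after the start, had 20 and 5 reads and a log2 ratio of -1.29 (-3.06 to 0.17), which went the other way. Gm29114, which runs antisense across the end of the gene and shares 144 exon bases with it, had 6 reads and 0. Whether the intronic reads came from unspliced Ikzf2 RNA was not tested, and the use of strand in counting is not given in the sources used here.

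**Figure D2:**
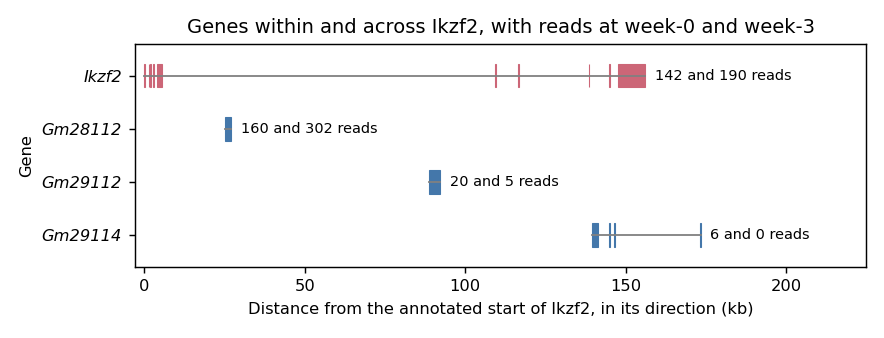
Exons (boxes) of Ikzf2 and of 3 genes annotated within or across it, by distance in kb from the annotated start of Ikzf2 in its direction of transcription, with the reads at week-0 and week-3 beside each. Gm28112, at 25.2 to 27.1 kb inside an intron, had 160 and 302 reads against 142 and 190 for Ikzf2.

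Ikzf5, a divergent member of the Ikaros family, was lower at week-3. It lies on chromosome 7 from 131388652 to 131410521 on the minus strand (ENSMUSG00000040167). From 149 reads its FPKM at week-0 was 3.34 (2.82 to 3.92), and from 42 reads that at week-3 was 1.54 (1.11 to 2.08). The intervals were well apart, and the week-3 level was 0.461 times that of week-0 (0.319 to 0.653), a log2 ratio of -1.12. TMM scaling gave -1.23. Of all genes tested 14.3% were as low or lower in ratio, and of the genes with at least 100 reads 9.47%. The annotated span of Fgfr2 covers Ikzf5 on the same strand without shared exon bases, and Fgfr2 had 7 reads and 0.

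Ikzf5 starts head to head with Acadsb, a mitochondrial acyl-CoA dehydrogenase gene on the opposite strand. The 79 bases between their annotated starts are shown because the genes on its sides differed in their ratios. They lie at chr7:131410522-131410600 of GRCm38 and are printed on the minus strand, so that they run towards Ikzf5, with the 5 CpG dinucleotides in capitals, from the RefSeq promoter entry:

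Ikzf5 to Acadsb: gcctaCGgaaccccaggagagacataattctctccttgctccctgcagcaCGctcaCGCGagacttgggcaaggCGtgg

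The GC content of this stretch was 60.8%, beside a median of 52.7% over all promoter entries of 300 bases. Acadsb had 71 reads in the control library and 43 after withdrawal, FPKM of 1.38 and 1.37, and a log2 ratio of -0.01 (-0.60 to 0.55). The ratio of Acadsb to Ikzf5 reads was 2.14 times higher at week-3, with an interval of 1.25 to 3.69 that left out 1. Acadsb itself had no difference detectable at this depth.

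Ikzf3, a factor of mature B cells and plasma cells, was near the limit of detection. It lies on chromosome 11 from 98464902 to 98546031 on the minus strand (ENSMUSG00000018168). There were 8 reads at week-0, an FPKM of 0.132 (0.0571 to 0.261), and 2 reads at week-3, an FPKM of 0.0541 (0.00655 to 0.195). The ratio was 0.409, but its interval ran from 0.0423 to 2.05, so a difference was not detectable at this depth although the ratio passed the limit. The 7 plasma cell marker genes summed to an FPKM of 318 at week-0 and 55.9 at week-3, with 5 at or below 0.5 times. Most of the week-0 sum came from Jchain, at 221 and 6.76 FPKM. Most of the week-3 sum came from Xbp1, which was about level at 50.8 and 47.8. The 9 B cell marker genes summed to 37.4 and 27.0, and most of both sums came from Cd79b at 23.5 and 26.4 FPKM. Of the 7 above 0 in both libraries, 5 were at or below 0.5 times, 2 with an interval that left out 1. Cd22 had 1 read at week-0 and 0 at week-3. The part of such cells in the Ikzf3 reads was not tested.

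Ikzf4, known from regulatory T cells, had 9 reads before withdrawal and 5 after it. It lies on chromosome 10 from 128630843 to 128645991 on the minus strand (ENSMUSG00000002578). Its FPKM was 0.120 (0.0549 to 0.228) and 0.109 (0.0354 to 0.255), and the log2 ratio of -0.14 (-2.06 to 1.59) showed no detectable difference. Gm26876, a lincRNA gene on the opposite strand, shares 37 exon bases with Ikzf4 at its start and had 5 and 7 reads. Reads in those bases cannot be told apart between both genes without strand.

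Bcl11a was second by FPKM in both libraries, though its counting interval overlapped that of Ikzf5 at week-0 and that of Ikzf2 at week-3. Bcl11a lies on chromosome 11 from 24078056 to 24174123 on the plus strand (ENSMUSG00000000861), which puts 3 of the 7 members on chromosome 11. With 427 reads in the control library the FPKM was 3.78 (3.43 to 4.15), and with 208 reads after withdrawal it was 3.01 (2.61 to 3.45). The level was 0.797 times that of week-0 (0.672 to 0.942), which left out 1 but did not reach 0.5, and 32.5% of the genes tested had a ratio as low or lower. The antisense gene 4930538E20Rik shares 316 exon bases with Bcl11a and had 7 and 3 reads, which is few against those of Bcl11a. Gm12064, antisense in an intron, had 0 and 3 reads. The 8 marker genes of plasmacytoid dendritic cells, a cell type that expresses Bcl11a, summed to an FPKM of 69.3 at week-0 and 11.1 at week-3, with 5 at or below 0.5 times and Klk1 at 0 at week-3. Their part in the Bcl11a value was not tested.

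Bcl11b had 5 reads before withdrawal and 3 after it, the fewest of the family over both libraries together. It lies on chromosome 12 from 107910403 to 108003602 on the minus strand (ENSMUSG00000048251). The FPKM was 0.0740 (0.0240 to 0.173) and 0.0726 (0.0150 to 0.212), and the log2 ratio was -0.03 (-2.71 to 2.33). The 10 T cell marker genes summed to 21.8 and 7.53, of which Lck supplied 10.5 and 5.47 FPKM. Of the 8 above 0 in both libraries, 4 were at or below 0.5 times, 3 with an interval that left out 1. Cd3e had 5 reads at week-0 and Cd8a 3, and both had 0 at week-3, which is few reads to compare. The 7 marker genes of group 2 innate lymphoid cells, which also use Bcl11b, summed to 6.34 and 6.69, but genes of the list differed in opposite directions, with 3 at least 2 times higher and 1 at most 0.5 times. Il1rl1 was at 0.199 and 2.70 FPKM and Il2ra at 0.159 and 0.781, whereas Rora was at 2.13 and 0.259. Gata3 was at 3.59 and 1.93, and Il13, with 2 and 4 reads, was the other higher gene past 2 times, with an interval that included 1. Klrg1 was at 0 in both libraries and Il5 at 0 at week-0. The reads of Bcl11b were too few to follow either list.

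**Figure D3:**
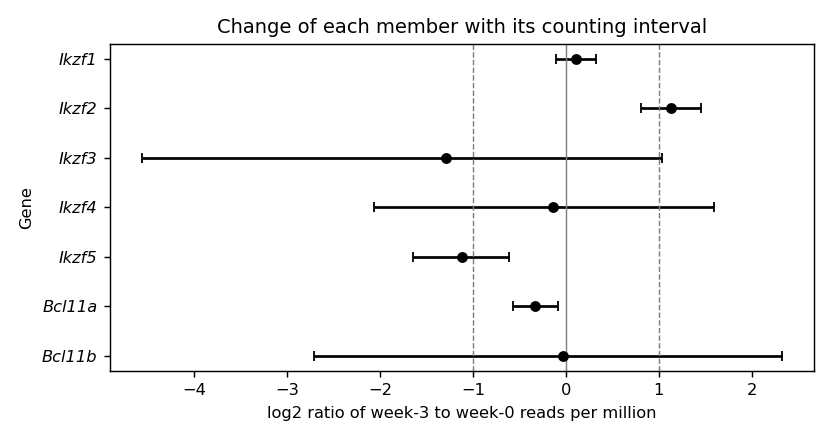
The log2 ratio of week-3 to week-0 for each gene (points) with the 95% Clopper-Pearson interval (bars), where dashed lines mark ratios of 2 and 0.5. The intervals of Ikzf2 (0.81 to 1.45) and Ikzf5 (-1.65 to -0.61) lay on opposite sides of 0, and those of Ikzf3, Ikzf4 and Bcl11b spanned it widely.

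The ratio of 2 members within a library does not depend on the scaling between libraries. Of the 21 pairs, 7 had a change of this ratio whose interval left out 1. They include every pair among the 4 members with at least 100 reads. Pairs that share a member are not independent and restate the ratios of single genes. The share over pairs of other genes was not computed. FPKM of Ikzf1 were 5.10 times those of Ikzf2 at week-0 and 2.51 times at week-3, a change of 0.493 times (0.375 to 0.645). The Ikzf2 to Ikzf5 ratio went from 0.387 to 1.84, a change of 4.73 times (3.11 to 7.30). Ikzf2 against Bcl11a went from 0.342 to 0.940, a change of 2.74 times (2.07 to 3.64). Ikzf1 against Ikzf5 went from 1.97 to 4.61, a change of 2.33 times (1.59 to 3.48). Ikzf1 and Bcl11a moved apart less, by 1.35 times (1.08 to 1.70). The other 2 pairs with such an interval were Ikzf5 against Bcl11a (0.579, 0.386 to 0.856) and Ikzf2 against Ikzf3 (5.33, 1.04 to 52.3), the last with only 10 Ikzf3 reads behind it.

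**Figure D4:**
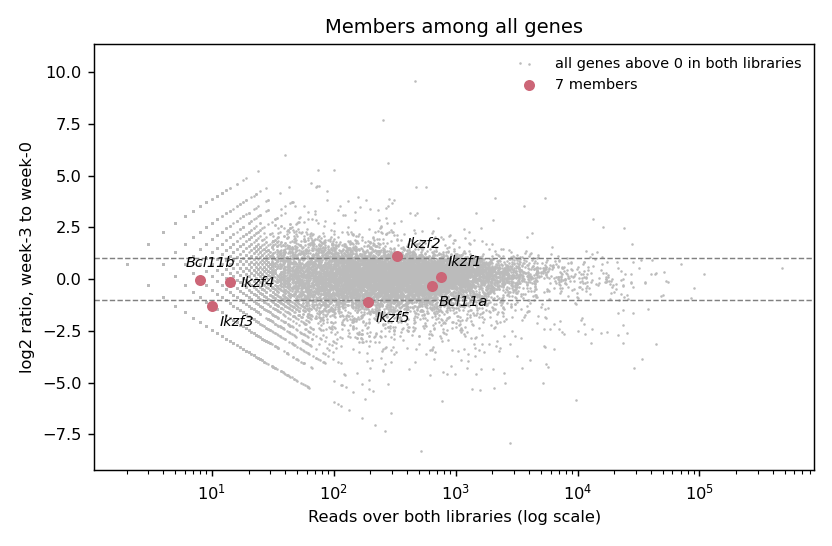
The log2 ratio of week-3 to week-0 against the reads over both libraries (log axis) for the 15377 genes above 0 in both (grey) and the 7 members (red), where dashed lines mark ratios of 2 and 0.5. Ikzf2 and Ikzf5 lay just outside the dashed lines, Ikzf1 and Bcl11a between them, and the other members at 8 to 14 reads, where the spread over all genes was widest.

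Most genes of the partner complexes of these factors were within the limits of 2 and 0.5 times. Of 15 NuRD subunits, all were above 0 in both libraries and 3 were past 2 times, with a median log2 ratio of 0.13. Mta3, a subunit found in B cell repressor complexes, was at 12.5 and 4.43 FPKM (log2 ratio -1.49). Cdk2ap1 was at 6.59 and 14.4 (1.13), and Mbd2, the reader of methylated DNA, at 2.32 and 4.86 (1.07). The subunit with most reads, the histone binding protein Rbbp7, was level at 71.8 and 79.1 FPKM. Of 18 SWI/SNF (BAF) subunits, 1 was past 2 times and the median was -0.29. That was Smarcd2, a subunit needed in granulocyte development, at 6.87 and 14.3 FPKM (1.06). Arid1a, with most reads of this list, was at 13.4 and 17.1. Of 9 other corepressors, 1 was past 2 times and the median was 0.04. Ncor1, with most reads of this list, was at 9.13 and 7.23 FPKM. Of 5 genes of the cereblon ubiquitin ligase, which degrades Ikzf1 and Ikzf3 proteins in human cells treated with thalidomide analogs, none was past 2 times. The substrate receptor Crbn was at 2.19 and 1.69 FPKM and Rbx1, with most reads, at 81.1 and 134. These shares stand beside 30.5% of all genes tested and 18.7% of the genes with at least 100 reads over both libraries. Most genes of these lists had that many reads.

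Genes of the early lymphoid programme, which Ikzf1 and Bcl11a are known to support, were mostly lower at week-3. Of 16 such genes, 15 were above 0 in both libraries, 8 were at most 0.5 times and 1 at least 2 times higher, beside 16.2% and 14.2% of all genes, with a median log2 ratio of -1.58. All 8 that were lower had an interval that left out 1. Flt3, the cytokine receptor of lymphoid-primed progenitors and the gene of this list with most reads, was at 157 FPKM at week-0 and 38.9 at week-3, a log2 ratio of -2.02 (-2.12 to -1.92). Notch1, the receptor for T cell specification, was at 9.75 and 1.79 FPKM (-2.45). Cd79a, a B cell receptor chain, was at 12.3 and 0.353 (-5.12, from 114 and 2 reads). Ccr9, a homing receptor of thymus-seeding progenitors, had 59 and 3 reads (-3.59), and Ebf1, the B cell specification factor, had 15 and 1 (-3.20, -8.59 to -0.50). The exception in direction was the recombinase gene Rag2 with 1 and 5 reads, named after its values were seen, whose interval included 1. The list shares genes with the T cell, B cell and plasmacytoid dendritic cell markers, and the part of such cells was not tested. The level of Ikzf1 mRNA was about equal in both libraries beside these lower values. That of Bcl11a was 0.797 times at week-3 (0.672 to 0.942).

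Beta-type globins were compared because Bcl11a silences the embryonic genes. Of 5 genes, Hbb-bh1 and Hbb-bh2 were at 0 in both libraries and Hbb-y had 0 reads in the control library and 1 after withdrawal, so the embryonic genes were not detectable at this depth. The adult genes were both lower at week-3. Hbb-bt was at 491 and 47.9 FPKM (log2 ratio -3.36), and Hbb-bs at 275 and 21.2 (-3.70). These adult copies are near-identical, so reads may have been split between them in an uncertain way.

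Among 18 other C2H2 factors of blood cells, 17 were above 0 in both libraries. The median log2 ratio of the 17 was 0.06, and 6 were past 2 times, beside 30.5% of all genes. Gfi1, a transcriptional repressor needed in granulocyte differentiation, was at 0.972 and 4.47 FPKM (log2 ratio 2.20, 1.65 to 2.78), which was higher by more than any Ikaros or Bcl11 gene. Prdm1, the plasma cell factor, had 39 reads and 1 (-4.58). Zfpm1, the Gata1 cofactor, was at 16.9 and 5.24 FPKM (-1.69), and Zbtb1, a factor of lymphoid development, at 3.33 and 1.39 (-1.26). Named after their values were seen, Mecom was also lower (-1.10) and Zbtb7b higher (1.14). Zbtb7a, which has most reads in this list and like Bcl11a silences globin genes, was at 12.3 and 12.8 FPKM.

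**Figure D5:**
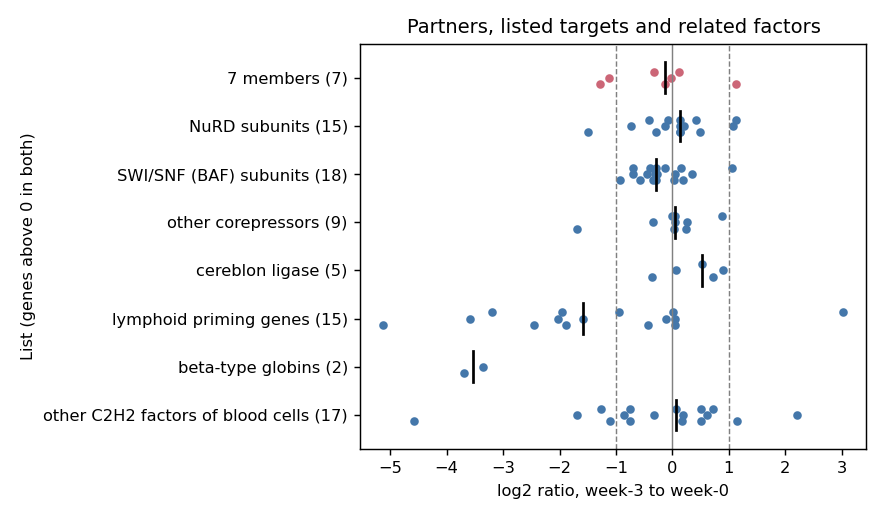
The log2 ratio of week-3 to week-0 for the 7 members (red) and for the genes of 7 lists (blue), where black bars are medians, dashed lines mark ratios of 2 and 0.5, and the number of genes above 0 in both libraries stands behind each name. NuRD, SWI/SNF and corepressor genes lay mostly between the dashed lines, and the early lymphoid genes had a median of -1.58.

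Promoter sequence was compared for the 4 members with a RefSeq entry (Ikzf1, Ikzf5, Bcl11a and Bcl11b), from 250 bases before to 50 after the start. The motif searched was the core GGGAA on either strand, at the heart of the sequences that Ikaros binds. It was present in 3 of the 5 entries of these genes, beside 62.7% of 32851 promoters, so a match was common. The entries of Bcl11b and of the upstream start of Ikzf1 held none. Windows of 30 bases with the core or its reverse complement in capitals are shown for a match in each of the 3 genes with a level high enough to compare, on the strand of the gene, with 2 matches in that of Bcl11a, at chr11:24080523-24080552 (Bcl11a, plus), chr11:11690124-11690153 (Ikzf1, plus) and chr7:131410497-131410526 (Ikzf5, minus):

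Bcl11a: ggggtgctcattGGGAAttgaatttTTCCC

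Ikzf1: tcctgtgtgtgcTTCCCtgagagaaaacta

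Ikzf5: cgtggggcgggcGGGAAgggagcggagaca

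Counted from the RefSeq start, the matches shown began at -160 and -147 in Bcl11a, -41 in Ikzf1 and -36 in Ikzf5, the last inside the span listed for Ikzf5, whose start lies further upstream. Members with a match included Ikzf5, which was lower at week-3, and Ikzf1, which was about level, and a match is not a binding site.

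The study centred on miR-142a, so the 3′ UTRs of the members were searched for a perfect match of 7 bases to its seed, which is bases 2 to 8 and is given in capitals in the mature RefSeq sequences:

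miR-142a-3p: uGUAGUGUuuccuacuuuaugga

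miR-142a-5p: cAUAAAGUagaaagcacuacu

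None of the 7 members held a match in the 3′ UTR of the transcript with the longest coding sequence, where 5.55% of 20123 UTRs held a match for miR-142a-3p and 13.4% for miR-142a-5p. The UTRs searched were between 133 bases (Ikzf4) and 4997 bases (Bcl11b), and other UTR forms of the same genes were not searched. For Ikzf2 only 731 bases were searched. Its last annotated exon runs from 147.753 to 156.031 kb after the start, so most of that exon was not covered.

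Over 2 libraries a pattern consists of only 2 levels. Among the 8817 genes with at least 100 reads, those nearest to Ikzf1 in log2 FPKM were Acp6 (6.71 and 7.05 FPKM) and Mrs2 (6.42 and 7.08). Nearest to Ikzf2 were the noncoding RNA Kcnq1ot1 (1.32 and 2.85) and Ccdc18 (1.34 and 2.77). Ikzf5 lay next to Gm43336 (3.35 and 1.49) and the DNA repair gene Ddb2 (3.29 and 1.59), and Bcl11a next to Gab2 (3.81 and 2.98) and Itpr1 (3.73 and 2.98). The distances were between 0.0193 and 0.0572 log2 units. In the GO terms listed with the genes, all 7 members carried the term for sequence-specific transcription factor activity. The term lymphocyte differentiation was attached to Ikzf1, Ikzf3, Bcl11a and Bcl11b, 4 of 7, beside 0.907% of all genes, and to neither of the members whose ratio was past 2 times with an interval that left out 1.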

How the data were processed

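LSKs were sorted by FACS, cDNA was made with the SMARTer Ultra Low Input kit and sequenced, and the submitters' processing notes name TopHat2 2.0.9 and mm10 (GRCm38). The authors deposited counts, as whole reads per gene without normalization, and FPKM, which the authors scaled by gene length and by total reads on genes. The counting tool, annotation release and use of strand are not given in the sources used here. The lengths behind the FPKM were longer than the merged exons of GENCODE M21 (10847 against 5777 bases for Ikzf1). No column of another sample was used.

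Tables were joined by Ensembl identifier. Members were rows with the symbols named. Members and gene lists were chosen with earlier results of these data known. With 1 library per time point no test across conditions was made. The ratio of FPKM was called at 2 or 0.5 among genes above 0 in both libraries, with exact Clopper-Pearson intervals of the reads. Named genes were the members, genes overlapping them, up to 4 genes per list past 2 times with an interval that left out 1, the gene with most reads in each list, and the 2 genes nearest to each member with at least 100 reads. Marker lists were given by sums and counts. A few genes of the lists are not reported here.

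Alternatives were TMM (edgeR 4.0.16, R 4.3.3), median-of-ratios size factors (DESeq2 1.42.0), a pseudocount of 1 FPKM, a minimum of 10 reads, limits of 1.5 and 0.67, and an edgeR exact test with an assumed coefficient of variation of 0.1 or 0.4. The libraries held 6356164 (week-0) and 3886695 (week-3) reads on genes. The interval code was tested on simulated data. Strand, biotype and transcripts came from GENCODE M21, and promoters and miRNAs from RefSeq (GRCm38.p6). Scripts ran in Python 3.11.15 with scipy 1.17.1 for intervals, pandas 2.3.3 and numpy 2.4.6 for tables, and matplotlib 3.10.9 for plots.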

Additional observations from a re-analysis of the deposited data

How the results depend on the processing

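Limits: the libraries were not replicated, so leaving out a replicate was not possible, and intervals cover counting error only. No paired analysis was possible because each time point has 1 library. The number of members past 2 times was 3 and remained 3 under TMM, median-of-ratios scaling, a minimum of 10 reads and limits of 1.5 and 0.67. It was 2 where the interval had to leave out 1 or at an assumed coefficient of variation of 0.1, since Ikzf3 dropped out. It was 0 with a pseudocount of 1 FPKM, which shrinks low values by construction (the log2 ratio of Ikzf2 became 0.74), and 0 at an assumed coefficient of variation of 0.4. Of the genes in the 7 lists 22 were past 2 times, against 12 with the pseudocount, 35 with limits of 1.5 and 0.67, and 3 at the coefficient of variation of 0.4. The early lymphoid genes went from 9 to 5 with the pseudocount and to 1 at 0.4. The median log2 ratio of the members lay between -0.25 and -0.01. Of 21 member ratios under other scalings or the pseudocount, 1 changed sign, that of Ikzf1 under TMM. In an alternative chosen after seeing the data, with GENCODE exon lengths, Ikzf2 was at 1.04 times Bcl11a at week-3, in place of 0.940 times.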
